A study of Drosophila melanogaster with 2 samples.

Results

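The Polycomb and trithorax group genes of Drosophila melanogaster were examined for binding of Ovo, a DNA-binding zinc-finger protein that the female germline needs, by chromatin immunoprecipitation and sequencing (ChIP-seq). The 33 genes were taken from a list of named genes, 20 of the Polycomb group and 13 of the trithorax group, out of 13945 protein-coding genes. In the annotation 32 matched by symbol and 1, calypso, by synonym (it is listed there as caly). The list uses no measured value. Chromatin came from whole adult female flies of 1 transgenic line in which Ovo carries GFP at its C terminus, and was precipitated with an anti-GFP antibody. There was 1 group, ovo-GFP, with 2 biological replicates, numbered 1 and 4 in the labels. The age of the flies is given as unknown, and the labels describe neither the promoter that drives the transgene nor the endogenous ovo gene. Whole flies mix ovary with all somatic tissues, so a peak cannot be placed in a tissue, and peak lists cannot test the labelled tissue against marker genes. No mock precipitation was analysed here.

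Polycomb group proteins keep developmental genes silent through complexes that modify and compact chromatin, and trithorax group proteins keep them active by methylating histones or moving nucleosomes. In the fly the Polycomb proteins act through Polycomb response elements, DNA to which factors such as PHO and GAGA factor bind. In the ovary these proteins are known for roles in germline and follicle cell differentiation, and many of their mRNAs are supplied to the egg by the mother. Membership of a group describes what the proteins do and not how their own genes are controlled.

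Peaks on the genome build dm6 were used. The thresholded list, which the authors made from both replicates with the irreproducible discovery rate procedure, held 4477 peaks with scores from 74.87 to 1349. The score is the authors' enrichment value against a control, and rank 1 is the highest score of a list. The pooled list and the relaxed list of each replicate held 30000 peaks each, down to background. No list gives read counts, so the depth is unknown and a missing peak may lie below detection. A gene had a promoter peak where the summit, the highest point of a peak, lay within 500 bp of any of its annotated transcription start sites (TSSs).

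Ovo-GFP summits lay at the promoters of 16 of the 33 genes (48.5%), against 3283 of all protein-coding genes (23.5%). The count was 10 of 20 for Polycomb genes (50%) and 6 of 13 for trithorax genes (46.2%). In the 4477 best peaks of replicate 1 alone it was 10 Polycomb and 5 trithorax genes, against 22.7% of all genes. In those of replicate 4 alone it was 10 and 6, against 23.4% of all genes. The shares of the groups in the thresholded list thus differed by less than 1 trithorax gene adds, and mor, the weakest of the 16, was called in 1 replicate alone. Of the 16 genes, 15 had a summit at a TSS in the best peaks of both replicates alone, the exception being mor. Over all protein-coding genes 2643 had one in both, beside 3283 in the thresholded list. That list was itself made from the 2 replicates, so such agreement is not read as a trait of the members. The members were chosen with earlier results known and genes are not replicates, so no test was made between the groups or against all genes. The members were also longer than most genes, with a median of 7560 bp against 2166 bp, and among genes with a single TSS position 6 of 19 members had a promoter peak against 17.3% of all genes. With 2 or 3 TSS positions it was 9 of 12 members against 38%, and with 4 or more 1 of 2 members against 61.6%. By gene length, 4 of 13 members under 5 kb had a promoter peak against 19.6% of such genes. From 5 to 10 kb it was 4 of 10 against 36.6%, a share near the background. From 10 to 20 kb it was 4 of 5 against 36.3%, and in genes of at least 20 kb 4 of 5 against 32.3%.

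**Figure D1:**
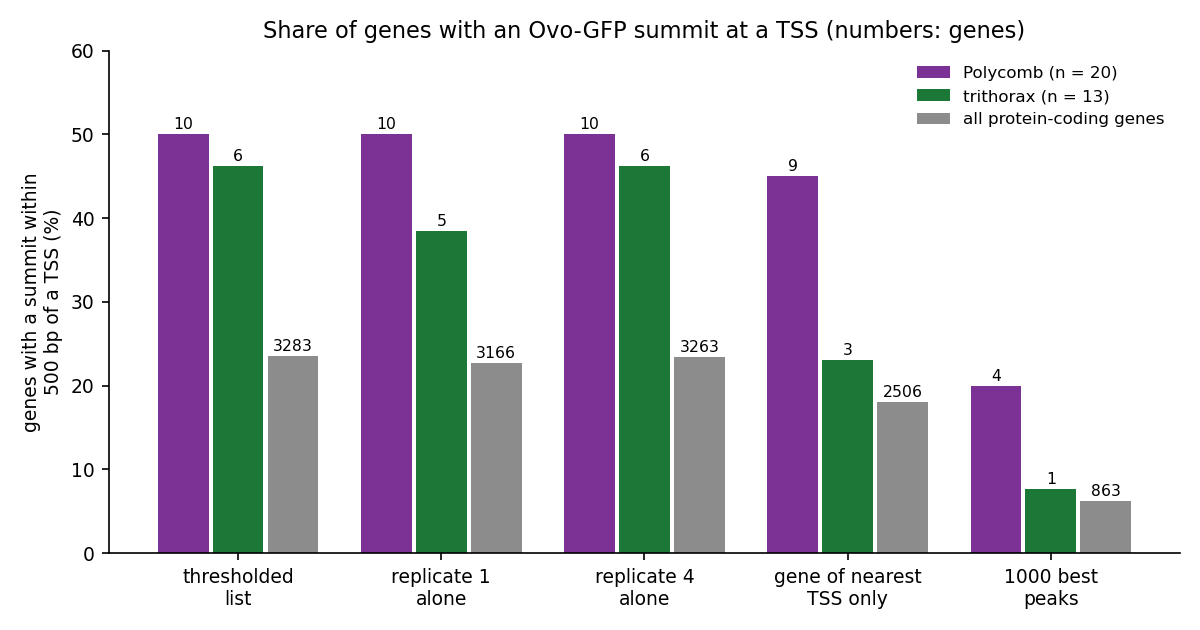
Bars give the percentage of Polycomb genes, trithorax genes and all protein-coding genes with a summit within 500 bp of a TSS, with the number of genes above each bar, for the thresholded list, each replicate alone, peaks given only to the gene of the nearest TSS, and the 1000 best peaks. Polycomb genes stand at 50% in the 3 lists of 4477 peaks, and trithorax genes fall to 23.1% when only the nearest TSS counts.

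The strongest promoter peaks of the Polycomb group were at genes of Polycomb repressive complexes 1 and 2 (PRC1 and PRC2). These 2 complexes hold most of the 20 listed genes. Of 7 genes of PRC1, which ubiquitylates histones and compacts chromatin, 4 had a promoter peak. Of 8 genes of PRC2, which methylates histones, 5 had one. Of the 3 genes of the PHO repressive complex, Sfmbt alone had one. Of the 2 genes of the PR-DUB deubiquitylase, Asx and calypso, neither did. Over all protein-coding genes the share was 23.5%, and the counts per complex are small and were not tested. The median of the best rank was 1096.5 over the 10 Polycomb genes and 2203.5 over the 6 trithorax genes, beside 1896 over all 3283 genes with a promoter peak, and 4 Polycomb genes and 1 trithorax gene were among the 1000 best peaks (6.19% of all genes).

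The polyhomeotic genes ph-p and ph-d, adjacent and closely related genes for PRC1 subunits with a SAM domain, had the strongest PRC1 peaks. At ph-p (X, 2126210 to 2138371, minus strand) the peak at 2137801 to 2138036 scored 387 (rank 128 of the thresholded list). Replicate 1 placed it at rank 210 with score 143.6, and replicate 4 at rank 86 with score 247.7. Its summit was 451 bp inside the gene, in the 5' UTR. A second summit, at -254 bp from an internal TSS of ph-p, ranked 953 in the thresholded list, 521 in replicate 1 and 1619 in replicate 4. A weaker intronic summit, rank 2990, was at rank 16081 in replicate 1 and 2481 in replicate 4. The replicates thus placed the strongest ph-p peak among their 210 best and differed more over the weaker ones. At ph-d (X, 2115727 to 2123286, minus strand) the summit lay at -201 bp, with a score of 307 and rank 257, rank 335 in replicate 1 and rank 194 in replicate 4. Because the genes are paralogs, reads from shared sequence could be given to either copy, and how the authors treated such reads is not given in the sources used here.

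The ph-d summit was the highest of the Polycomb group whose surroundings hold no annotated UTR, and the stretch around it (dm6, plus strand, chrX:2123437-2123537) are shown with the summit base in capitals. The Ovo core site, TAACNGT on either strand, was not among these letters.
ph-d: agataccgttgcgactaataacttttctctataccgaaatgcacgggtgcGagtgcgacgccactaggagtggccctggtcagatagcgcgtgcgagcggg

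The other PRC1 genes with a promoter peak were the neighbours Psc and Su(z)2, which encode related RING-finger subunits. At Psc (2R, 12965997 to 12980994, minus strand) the summit, in the 5' UTR and -116 bp from an internal TSS, scored 152 (rank 1378), with ranks of 1140 in replicate 1 and 1837 in replicate 4. At Su(z)2 (2R, 12996501 to 13007911, plus strand) the summit at -60 bp had a score of 177, rank 1024 and ranks of 1305 in replicate 1 and 906 in replicate 4. Its second summit, 35 bp inside an internal TSS, was near the threshold at rank 4225, and the replicates differed over it, with ranks of 1785 and 9573. The chromodomain gene Pc, the ubiquitin ligase gene Sce and the SAM-domain gene Scm had no promoter peak. At Pc the strongest pooled summit was at rank 7758, and at Sce and Scm the pooled list held none within 500 bp.

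Among PRC2 genes, E(z), the histone methyltransferase, had the strongest peak. Its summit (3L, peak 10637876 to 10638315) was 34 bp inside the gene, with score 347.6 (rank 187). It was at rank 462 and score 110.2 in replicate 1, and rank 104 and score 231.9 in replicate 4. The promoter is shared, and Cnep1r2 also has a TSS within 500 bp of it. The PRC2 cofactor gene jing (2R, 6502006 to 6621792, plus strand), which encodes a zinc-finger protein, had promoter summits at 2 of its TSSs and another summit in an intron. The summit at -124 bp from its 5' TSS had rank 1402 (2779 in replicate 1 and 905 in replicate 4), and that 19 bp inside an internal TSS had rank 835 (979 and 811). The intronic summit had rank 2566 (1804 and 4144). The zinc-finger subunit gene Su(z)12 had a summit at -24 bp with rank 1527, ranks of 2637 in replicate 1 and 1099 in replicate 4, and a promoter shared with Pfdn6. At Jarid2, a cofactor gene, the summit at -40 bp had rank 2339 (1915 and 2604) and lay nearer to the TSS of Uch-L5. The WD40 subunit gene esc had a summit at -13 bp, rank 2684 (3179 and 2713). Its paralog escl had none above the threshold, its pooled summit being at rank 8791, and neither did Caf1-55, a histone chaperone that other complexes share (rank 17915), or Pcl, at which the pooled list held no summit.

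Of the DNA-binding side of the Polycomb group, Sfmbt, the MBT-domain partner of PHO, had 2 overlapping peaks upstream (2L, summits at -113 and -314 bp). Their scores were 166.3 and 145.7 and their ranks 1169 and 1507. The stronger summit ranked 955 in replicate 4 and had no summit within 100 bp in replicate 1, and the weaker ranked 1282 in replicate 1 and 1840 in replicate 4. The TSS of CG5439 lies within 500 bp of both, and that of CG43925 within 500 bp of the stronger. The genes of the DNA-binding factors pho and phol had no promoter peak. At phol the pooled summit was the nearest below the threshold of all members, with score 63.8 and rank 5609, and at pho, on chromosome 4, the pooled list held none.

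The listed trithorax genes differed by complex. All 4 genes of the Brahma nucleosome remodelling complex, a SWI/SNF-type complex, had a promoter peak, as did kis and fs(1)h. None of the 6 genes of the COMPASS-type histone methyltransferase complexes did, and neither did ash1. Over all protein-coding genes the share was 23.5%. The counts per complex are small, and with only the gene of the nearest TSS counted, brm, mor and fs(1)h had no peak. This split was seen after the values were known and was not tested. The ATPase gene brm (3L, 15970082 to 15982869, minus strand) had the highest score of all members at a TSS, 414.8 and rank 102, with rank 217 and score 142.5 in replicate 1 and rank 65 and score 268.4 in replicate 4. Its summit lay at -135 bp, and the divergent gene Arl1 has its TSS 131 bp from the same summit. The peak therefore cannot be given to brm alone. At osa, the ARID-domain subunit, the summit at -97 bp had rank 2251 (1935 in replicate 1 and 2647 in replicate 4). At Snr1, a core subunit, the summit at -30 bp had rank 3316 (3736 and 3442) and was shared with mRpL44.

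The peak at mor, a scaffold subunit, was the weakest of the members at a TSS. Its summit was at -474 bp, near the edge of the window, with a score of 80.59 and rank 4034, and it lay inside the neighbouring gene Hel89B, 89 bp from that gene's TSS. It ranked 7443 in replicate 1, outside the 4477 best, and 2875 in replicate 4. The brm summit is the trithorax counterpart of the ph-d sequence, and the stretch around it (dm6, plus strand, chr3L:15982954-15983054), with the summit base in capitals, likewise hold no core site.
brm: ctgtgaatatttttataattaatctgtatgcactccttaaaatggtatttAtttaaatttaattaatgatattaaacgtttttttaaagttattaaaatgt

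With peaks given only to the gene of the nearest TSS, 9 of 20 Polycomb and 3 of 13 trithorax genes had a promoter peak, against 18.0% of all genes. The genes lost were Jarid2, brm, mor and fs(1)h. Of the 21 pairs of a member and a promoter summit, 10 were shared with another gene, and in 6 another gene's TSS was nearer. No such share over all pairs is given here, but over all genes 2851 promoter summits formed 3949 pairs, so sharing was common.

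The chromatin reader genes kis and fs(1)h had promoter peaks of middle rank. At kis, a CHD-family remodeller (2L, 210735 to 250823, minus strand), the summit at -86 bp belonged to an internal TSS and ranked 2156 (1309 in replicate 1 and 3865 in replicate 4). At fs(1)h, which encodes a BET bromodomain protein that the mother supplies to the embryo (X, 8037808 to 8061436, minus strand), the summits at -205 and -441 bp ranked 1712 and 2732. In replicate 1 these were at ranks 595 and 1940, and in replicate 4 at 3067 and 4029, so replicate 1 placed both higher. The TSS of mys, an integrin gene, is 4 bp from the stronger summit and 232 bp from the weaker, which lies within mys.

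**Figure D2:**
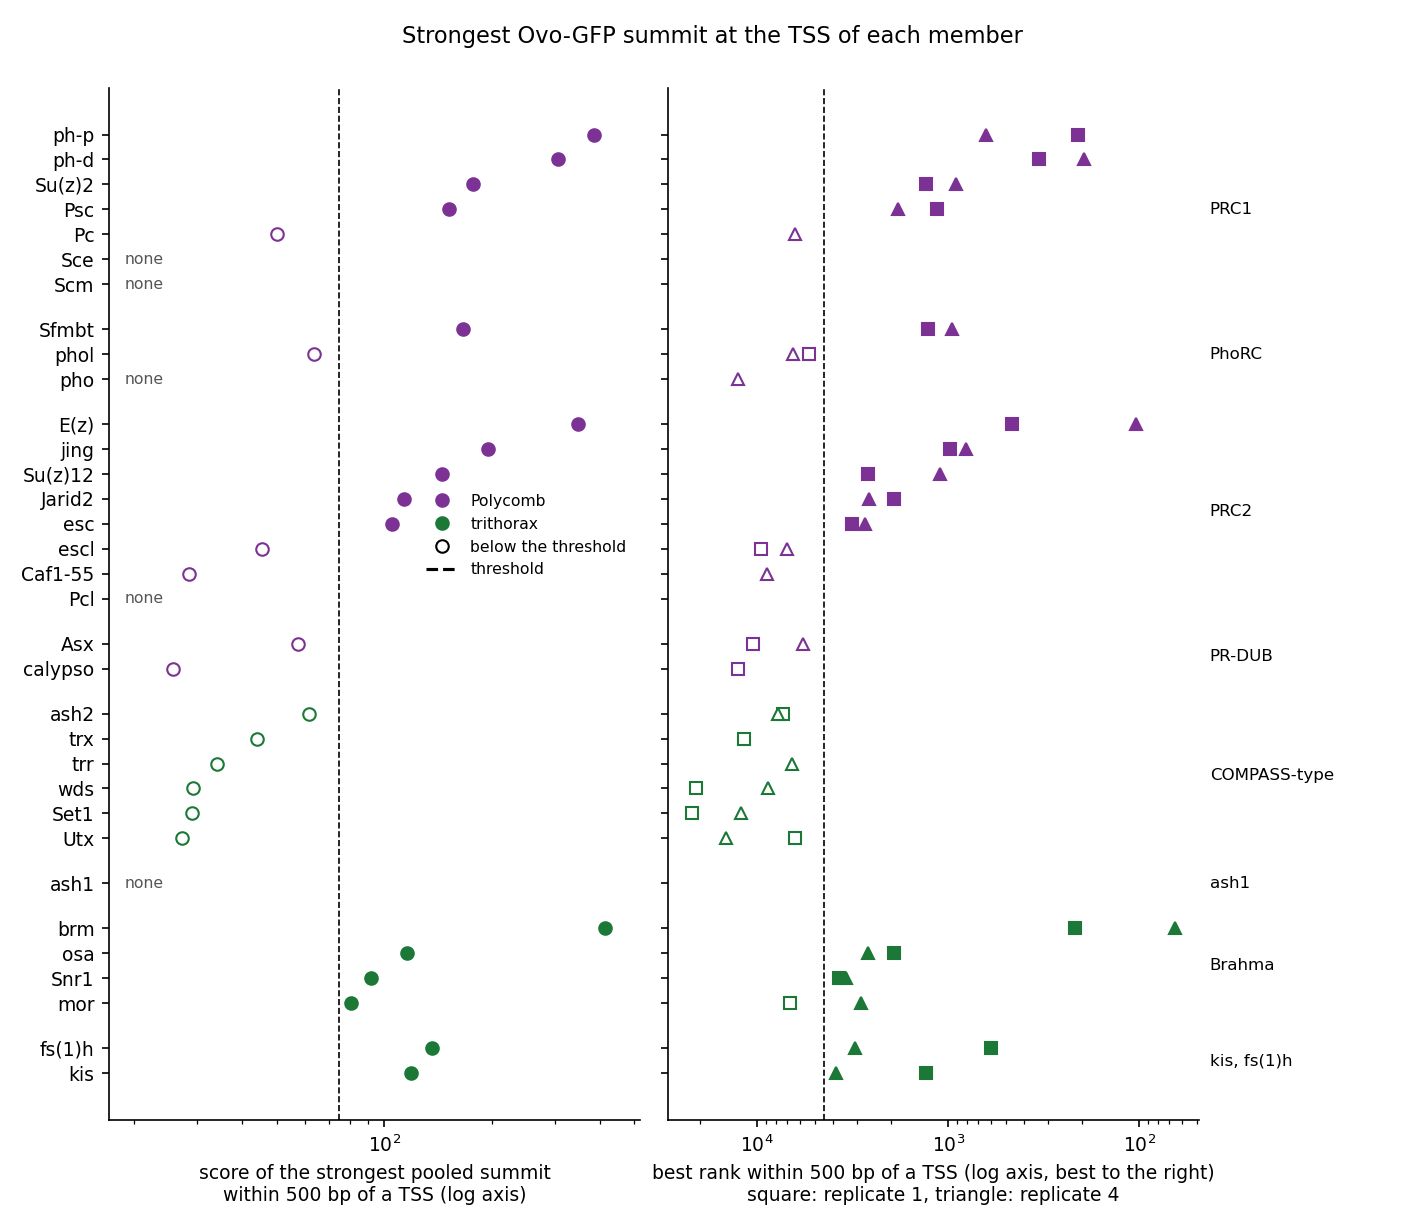
Left, the score of the strongest pooled summit within 500 bp of a TSS of each member, on a log axis, with filled circles for thresholded summits, open circles below the threshold (dashed line, lowest thresholded score 74.87) and "none" where the pooled list has no such summit. Right, the best rank within 500 bp in replicate 1 (squares) and replicate 4 (triangles), log axis, dashed line at 4477. The Brahma genes lie above the score threshold and the COMPASS-type genes below it. The ph-p triangle stands at rank 635 because the summit of rank 86 in replicate 4 fell outside the window.

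Of the 17 members without a promoter peak, 12 had a pooled summit below the threshold at a TSS, with ranks from 5609 to 21679 and scores from 25.71 to 63.8. A pooled summit of any rank was thus found at 28 of 33 members, 16 of 20 Polycomb and 12 of 13 trithorax, against 54.8% of all genes. The nearest below the threshold after phol were ash2, a COMPASS subunit gene (score 61.49, rank 5907), Asx (57.48, rank 6425) and Pc (50.06). Just inside the threshold stood mor and the second Su(z)2 summit. For the remaining COMPASS-type genes the best pooled ranks were 9161 at trx, a histone methyltransferase gene, 13227 at trr, another methyltransferase gene, 17167 at wds, 17301 at Set1 and 19551 at Utx, a histone demethylase gene. At Sce, Scm, pho, Pcl and ash1 the pooled list held no summit at the TSS.

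In gene bodies the summits were concentrated in a few long trithorax genes. A thresholded summit lay between the start and end of 9 of 33 members, 5 of 20 Polycomb and 4 of 13 trithorax, against 13.0% of all genes. Of the 27 body summits, 8 lay in Polycomb genes and 19 in trithorax genes, all 19 within osa, trx, fs(1)h and kis. Leaving out those within 500 bp of an own TSS, 2 were in Polycomb genes and 18 in trithorax genes. Close summits can belong to 1 site: with neighbours within 500 bp joined, those of trx formed 2 clusters and those of fs(1)h 4. The longest member, the Polycomb gene jing (119787 bp), held 2 body summits. Introns held 20 of the 27, 5' UTRs 5 and 3' UTRs 2, both in fs(1)h, and no summit lay in a coding exon. The shares over all body summits are not given here, so these counts are not read as a trait of the members.

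Gene length moved with these counts. Among genes of at least 20 kb, 5 of 5 members had a body summit against 39.4% of all such genes, and from 10 to 20 kb 3 of 5 against 36.1%. From 5 to 10 kb it was 0 of 10 members against 27.4%, and under 5 kb 1 of 13 against 6.18%. Genes of at least 20 kb held 1.03 body summits on average, and 92 of 1013 such genes (9.08%) held 4 or more. The members with 4 or more were osa with 7, fs(1)h with 5 and trx with 4, and 30 of the 1013 genes held 7 or more.

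At osa (3R, 17687818 to 17718350, minus strand, 30533 bp) all 7 body summits were intronic, more than 500 bp from any protein-coding TSS, and formed 2 runs. One run was 1085 to 5272 bp from the TSS with ranks from 1991 to 3133, and the other was 13966 to 17806 bp from it and included the strongest. The strongest osa summit (peak 17700324 to 17700763, score 263.8, rank 376) ranked 819 in replicate 1 and 210 in replicate 4. The protein-coding TSS nearest to it was that of CG31249, at 13473 bp. The next osa summit ranked 776 in the thresholded list, 1222 in replicate 1 and 701 in replicate 4. It lay also within the non-coding gene lncRNA:CR46035, and the summit of rank 1118 within lncRNA:CR46036. TSSs of non-coding genes were not examined. The strongest intronic summit of osa thus ranked above its promoter summit, at rank 2251, in each replicate.

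At trx (3R, 14263358 to 14286903, minus strand, 23546 bp) no summit reached the threshold at the TSS, but 2 pairs of overlapping peaks lay in an intron close behind it. The stronger pair had summits 1414 and 1202 bp from the TSS, with scores of 344 and 157.2 and ranks 192 and 1296. The first of these ranked 163 in replicate 1 and 218 in replicate 4, the second 2077 and 856. The other pair lay 3327 and 3108 bp from the TSS at ranks 2064 and 3033. Chromatin was sheared to between 200 and 800 bp, per the labels, so the summits of a pair cannot be told apart from 1 broad site.

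At fs(1)h 5 body summits were found in addition to the promoter summits. The strongest of them, in the 3' UTR of an annotated transcript (peak 8046512 to 8046951, score 168.3, rank 1142), ranked 869 in replicate 1 and 1445 in replicate 4. The intronic summits ranked 1408, 2842 and 3138, and of these the first had no summit within 100 bp in replicate 4. A second 3' UTR summit ranked 3998 (4215 in replicate 1 and 4203 in replicate 4). In kis the strongest body summit was intronic, 1155 bp inside the internal TSS (score 152.1, rank 1376, 1549 in replicate 1 and 1643 in replicate 4). A weaker one, 1412 bp inside the 5' TSS, ranked 3660 and had no match in replicate 4. It lay also within the non-coding gene lncRNA:CR44218.

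**Figure D3:**
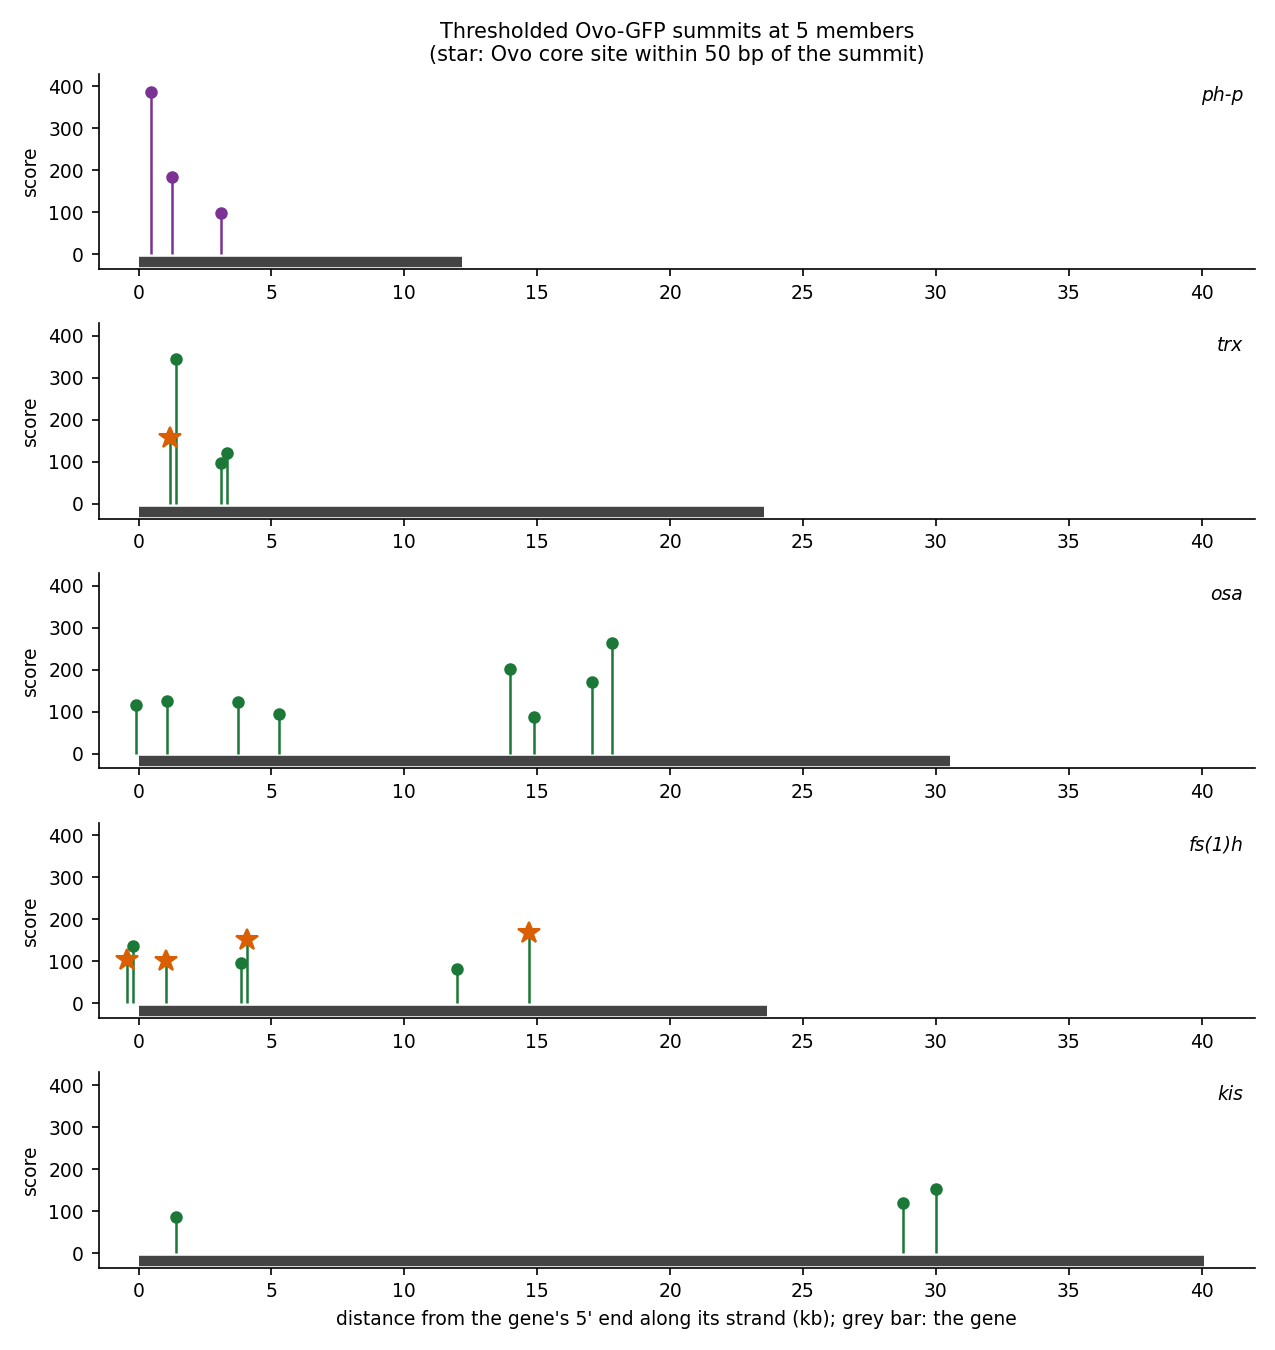
Each stem is a thresholded summit of ph-p, trx, osa, fs(1)h or kis, drawn at its distance from the gene's 5' end along the strand (kb) with its score as height, the bar below showing the gene. Stars have the Ovo core site within 50 bp of the summit. The trx summits lie within 3.5 kb of the 5' end, and the osa summits form 2 runs.

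Members' own summits rarely held the Ovo core site at promoters. TAACNGT, on either strand and no more than 50 bp from the summit, was at 1 of 21 member promoter summits (4.76%), against 392 of 2851 over all promoter summits (13.7%). The count was 0 of 14 for Polycomb and 1 of 7 for trithorax. Away from their own TSS it was at 4 of 20 member summits (20%), against 15.9% of 1626 summits over 500 bp from any TSS. Of the 5 member summits with the site, 4 were in or beside fs(1)h and 1 was in trx, and no summit of the other members had it. The 1 promoter summit with the site, that of rank 2732 at fs(1)h, lies within mys and is nearer to the TSS of mys. These counts are small and were not tested. Away from TSSs the shares at other windows were near those of all such summits, 10% against 9.9% within 25 bp and 20% against 22.5% within 100 bp.

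The summits that carried the core site are shown because all were assigned to 2 members, in dm6 plus-strand letters with the site in capitals. In trx and in the fs(1)h stretches of rank 1142 and 1408 the site reads on the minus strand. The trx stretch is chr3R:14285651-14285751, and the fs(1)h stretches are, in the order printed, chrX:8046682-8046711, chrX:8057299-8057399, chrX:8060341-8060441 and chrX:8061858-8061887. The first and last fs(1)h stretches are held to 30 bases because they touch an annotated UTR.
trx: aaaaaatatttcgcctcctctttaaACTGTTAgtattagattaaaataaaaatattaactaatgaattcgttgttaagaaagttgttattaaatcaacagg
fs(1)h (rank 1142): ctcatACCGTTAgttatACCGTTActtcta
fs(1)h (rank 1408): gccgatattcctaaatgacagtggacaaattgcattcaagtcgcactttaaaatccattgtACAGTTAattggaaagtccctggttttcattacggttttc
fs(1)h (rank 2842): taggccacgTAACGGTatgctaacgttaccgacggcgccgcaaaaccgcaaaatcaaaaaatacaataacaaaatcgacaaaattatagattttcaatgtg
fs(1)h (rank 2732): gcgaaTAACGGTggcaagtaattgtaataa

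The summit in the 3' UTR of fs(1)h held the site 2 times. A match describes the letters and does not show where Ovo was bound.

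The sites of 2 factors of Polycomb response elements were also counted within 50 bp of summits, on both strands. The GAGA factor site GAGAG was at 4 of 21 member promoter summits (19%), against 16.1% of all promoter summits, and at 7 of 20 member summits away from their own TSS (35.0%), against 21.9%. The core of the PHO site, GCCAT, was at 5 of 21 (23.8%) against 16.0%, and at 6 of 20 (30%) against 18.6%. The differences away from TSSs changed in size with the window and, for GCCAT, in direction. For GAGAG the share was 25% against 11.2% within 25 bp and 40% against 38.2% within 100 bp. For GCCAT it was 5% against 9.96% within 25 bp and 45% against 32.5% within 100 bp. The DRE, TATCGATA, a site of housekeeping promoters, was at 1 member promoter summit, that of Sfmbt at rank 1169, against 3.79% of all promoter summits. The 6-mer TAACGG, which overlaps the core site in part, was at 2 of 21 member promoter summits (9.52%) against 15.7%. Both GAGAG and GCCAT were at 3 of the 41 member summits (7.32%), against 2.61% of all thresholded summits. These were the summits of trx at rank 2064, of osa at rank 3133 and of kis at rank 2156, and the trx one, the highest scoring of them, is shown as an example (chr3R:14283526-14283626, dm6, plus strand, with both sites in capitals and overlapping GAGAG copies run together).
trx (rank 2064): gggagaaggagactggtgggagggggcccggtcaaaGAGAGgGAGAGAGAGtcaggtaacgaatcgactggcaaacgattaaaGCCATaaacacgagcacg

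Summit positions followed those of other promoter peaks. Member promoter summits had a median of -97 bp from the own TSS (quartiles -201 and -24 bp) and 17 of 21 were upstream, against a median of -92 bp and 78.1% upstream over 3949 pairs of a gene and a promoter summit. Polycomb summits had a median of -50 bp and trithorax summits of -135 bp, with 10 of 14 and 7 of 7 upstream.

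The replicates ranked most member summits among their best, with unequal ranks. Of the 41 summits of the members, 30 were within 100 bp of one of the 4477 best of both replicates (73.2%), against 67.9% of all thresholded summits. Of the 38 with a rank in both, the median ratio of the larger to the smaller rank was 2.02, beside 1.55 over all thresholded summits. Promoter summits were among the best of both replicates in 18 of 21 cases, and the others in 12 of 20. The exceptions among promoter summits were the stronger of Sfmbt, the second of Su(z)2 and that of mor.

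**Figure D4:**
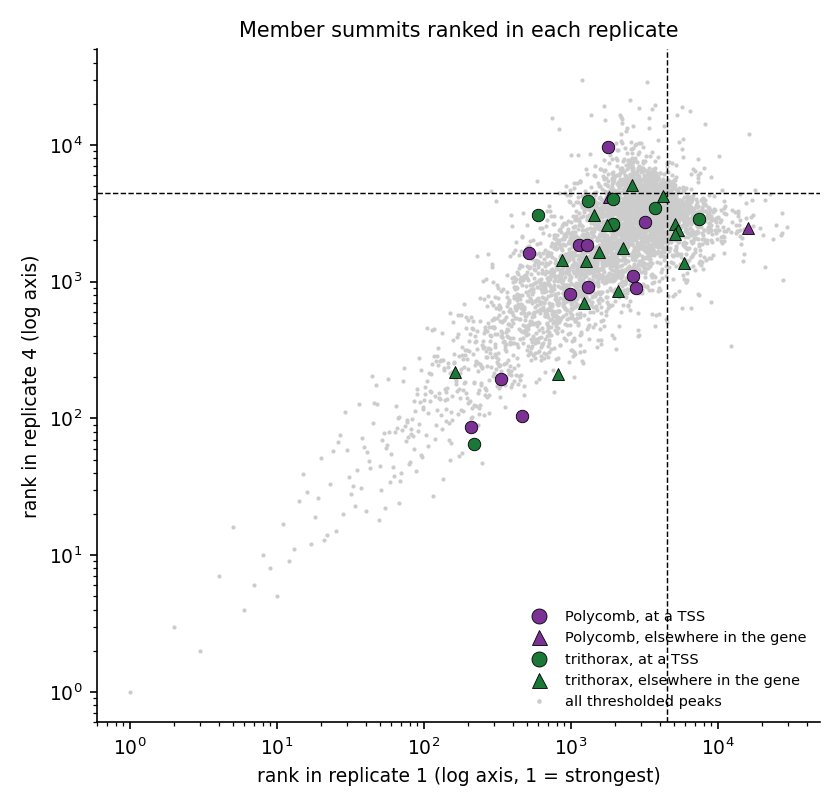
Each point is a thresholded summit, placed by its rank in replicate 1 and in replicate 4 (log axes, 1 is the strongest, dashed lines at rank 4477), with circles for member summits at a TSS, triangles for other member summits and grey dots for all thresholded peaks. The brm, ph-p, ph-d and E(z) circles and the strongest trx and osa triangles lie at the lower left.

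Genes of related function were counted from a list of 44 symbols, of which 43 matched a gene outside the 33. The list and its 2 groups were drawn up here. Of 15 Polycomb-related genes 11 had a promoter peak (73.3%), and of 28 trithorax-related genes 13 did (46.4%), beside 23.5% of all genes. The strongest was at lolal, a BTB-domain partner of GAGA factor (score 555.1, rank 36, 24 in replicate 1 and 58 in replicate 4). The nucleosome remodeller gene Iswi had rank 269 (307 and 279) and shares its peak with CG33672 and Mvk. The BTB gene psq had rank 475 (550 and 493) with 6 body summits, and Trl, which encodes GAGA factor, had rank 1110 with 5. The Trl summit ranked 1260 in replicate 4, had no summit within 100 bp in replicate 1 and is shared with CG42507. Trl (Trithorax-like) was counted as Polycomb-related, although it is also classed with the trithorax group. Of the Brahma subunits outside the 33 genes, Bap60 (rank 1217) and Bap170 (rank 3824) had a promoter peak, whereas Bap55, Bap111, polybromo and e(y)3 had none. Of COMPASS-type partners, Rbbp5 (rank 2146), Lpt (1038), Ncoa6 (1640) and Mnn1 (3724) had one, and Dpy-30L1, Cfp1, Hcf, Wdr82 and Ptip had none. Bap60 shares its peak with CG12096, and Bap170 with Trap1. Rbbp5 shares its peak with eRF1, Lpt with CG5339 and Ncoa6 with cype. The Mnn1 summit is not shared, but it ranked 4759 in replicate 1 and had no summit within 100 bp in replicate 4. A promoter peak was thus at 2 of 6 Brahma partners and at 4 of 9 COMPASS-type partners, grouped so after their values were seen. The split between the listed Brahma and COMPASS-type genes was not seen among these partners. Most of the partners' peaks are shared, so they cannot be given to the partner alone.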

How the data were processed

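The authors, per the labels and the deposited text, called relaxed peak lists against a control and made the thresholded list with the irreproducible discovery rate procedure. No peak caller, version or rate limit is named in those sources. Each deposited peak has a score, the authors' enrichment value, used here only for ranks within a list, and a summit, another deposited value. The thresholded list held the 4477 best peaks of the pooled list. Peak lists on dm3 were not used, since no coordinates were converted between builds.

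Summits were assigned to 13945 protein-coding genes and 19607 TSSs of Ensembl release 115 on the 6 arms, and sequence came from Release 6 (RefSeq), which shares dm6 coordinates. Positions are 1-based. Python 3.11.15, pandas 2.3.3 and numpy 2.4.6 were used, and the assignment was tested on planted summits. A replicate rank is that of the best summit within 100 bp. Polycomb included Caf1-55. All 33 members are accounted for, with full values for those with a promoter peak, and sequences were shown for summits with the core site and for the strongest summits free of UTRs, none from chromosome arm 2R. The trx sequence with GAGAG and GCCAT was chosen after its values were seen. The members, lists and rules were chosen with earlier results of these data known. No test was made, because 1 group has no comparison and genes are not replicates. The alternatives were other windows, lists, single replicates, nearest-TSS assignment and the group of Caf1-55.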

Additional observations from a re-analysis of the deposited data

How the results depend on the processing

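Promoter counts stayed within 1.5 times of those reported (10 Polycomb, 6 trithorax, 16 in all) with a window of 1000 bp, the 5'-most TSS only, each replicate left out (Polycomb 10 to 10, trithorax 5 to 6, all 15 to 16) and Caf1-55 moved or left out. With a 100 bp window they were 6, 3 and 9, against 11.7% of all genes. With the 1000 best peaks they were 4, 1 and 5, against 6.19% of all genes, and with the whole pooled list 16, 12 and 28, against 54.8%. With the nearest TSS only, trithorax genes fell to 3, while Polycomb stood at 9 and all at 12, against 18.0% of all genes. Body counts (5 Polycomb, 4 trithorax, 9 in all) were 5 to 6, 4 to 4 and 9 to 10 with each replicate left out. They were 3, 2 and 5 with the 1000 best peaks, against 3.94% of all genes, and 10, 7 and 17 with 500 bp added upstream, against 26.3%. With the pooled list they were 11, 11 and 22, against 48.7% of all genes, and the Polycomb share (55%) was then near that of all genes. With summits over 500 bp from any TSS, 2 Polycomb genes (10%) and 4 trithorax genes (30.8%) were left, against 5.68% of all genes. Of the 21 member promoter summits, 20 had a rank in both replicates at 100 bp, 11 at 50 bp and 21 at 200 bp. The core site was at 1 of the 21 within 25, 50 or 100 bp, against 7.75%, 13.7% and 20% of all promoter summits. GAGAG or GCCAT was at 8 (38.1%) within 50 bp, against 30% of all promoter summits, and at 11 (52.4%) within 100 bp, against 49.5%, a share near the background. The smaller lists hold fewer peaks, and the cause of other changes was not tested. Depth is unknown, so a member with no summit may lie below detection. No paired analysis was possible because there is 1 group.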

Other observations

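Several members without a peak of their own stood beside peaks of neighbours, some of them strong. Of the 16 members with no thresholded summit at a TSS or in the body, 13 had one within 5 kb outside the gene, against 31.8% of the 10283 protein-coding genes in the same position. These included summits near the threshold, such as that of rank 4237 beside ash2. One of the 1000 best summits lay within 5 kb of 6 of the 16, and the share of all genes for this is not given here. The strongest peak of the whole thresholded list (3L, 19590445 to 19590812, score 1349, rank 1 in both replicates) had its summit 156 bp beyond the 3' end of ash1, a histone methyltransferase gene, and 93 bp from the TSS of CG14100. The ash1 TSS is at the other end of the gene and had no pooled summit. The peak of rank 91 beside Pc was 1561 bp beyond its 3' end and 81 bp from the TSS of CG11309, and that of score 415.3 beside Caf1-55 was 1974 bp beyond its 3' end and 127 bp from the TSS of mRpS10. At phol the peak of rank 151 lay 1548 bp upstream, at CG3552.

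The chromatin around 2 gene pairs of PRC1 held further summits outside promoters. Between ph-d and ph-p, summits of rank 2060 and 3327 lay 819 and 2417 bp upstream of ph-d. The first ranked 4056 in replicate 1 and 1372 in replicate 4, and the second 3779 and 2989. Upstream of Psc, summits of rank 945 (1178 in replicate 1 and 858 in replicate 4) and 1063 (1156 and 1079) lay 559 and 4136 bp beyond the gene, and 3 summits of rank 1615, 3474 and 3973 lay 1529 to 2625 bp beyond the 3' end of Su(z)2. The replicates differed most over the last of these, at rank 1707 in replicate 1 and 15269 in replicate 4, while the others were at 1242 and 2202 and at 3409 and 3960. Upstream of jing a summit of rank 552 (1047 and 376) lay 1596 bp from the gene. No other protein-coding TSS is nearer to these summits than that of the member named.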
